A study of Arabidopsis thaliana with 48 samples.

Results

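The longest nuclear genes of Arabidopsis thaliana were followed through drought in rosette leaves of 2 genotypes. The members were the nuclear genes whose row in the deposited count tables spanned 10000 bases or more, with AT3G05680 left out by the rule. This gave 121 genes of 27445 nuclear genes in a table of 27655 rows. Apart from leaving out AT3G05680, the rule used span and no expression value, but it was set with earlier results of these data known. Their spans ran from 10095 to 27265 bases with a median of 11616, against a median of 2078 over all nuclear genes, and they made up 2.403% of the summed nuclear span. The 4 genes just inside the limit were AT4G31570 at 10095 bases, DCL4 and ABCC2 at 10096 each and SEX1 at 10099, and the 3 just outside were SUS2 at 9965, AT2G07360 at 9963 and ATRX at 9937. A span is the whole gene with its introns, in TAIR10 coordinates. There were 57 members on the plus strand and 64 on the minus strand, and chromosomes 1 to 5 held 36, 26, 18, 18 and 23 of them.

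The plants were wild type (Col-0, called WT) and mta, which is mta ABI3:MTA, a line in which the promoter of the embryo gene ABI3 drives MTA so that the m6A methyltransferase is depleted after the embryo stage. Both genotypes were either watered regularly (control) or left without water for 12 days from day 17 (drought), which gives 4 groups of 3 libraries per assay. Each group had an mRNA library (poly(A) RNA that was fragmented and kept as the input of the m6A precipitation), an m6A immunoprecipitation, a polysomal library from pooled gradient fractions that carried several ribosomes per transcript, and a GMUCT library. GMUCT sequences uncapped RNA and so samples cleaved and degrading transcripts. Nothing in the labels says that replicates were separate plants, so p-values measure only the spread between these samples, which may be technical.

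In Arabidopsis most genes are compact, and many of the longest ones encode very large proteins such as ATPases of ribosome assembly, checkpoint kinases, chromatin remodellers, class XI myosins and callose synthases. The MTA enzyme writes m6A, the commonest internal mark of plant mRNA, mostly close to the 3′ end of transcripts, where it has been tied to transcript stability. A long transcript needs longer to be made and read by ribosomes, and a break anywhere along it parts its 5′ portion from the poly(A) tail by which mRNA is selected.

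The tables held 1504013 to 5503037 gene counts per mRNA library, 35833742 to 43032763 per polysomal library and 1313457 to 12421168 per GMUCT library. The members received 18452 to 75618, 118585 to 234748 and 6243 to 88274 of these. MTA itself was at 18.0 to 25.1 CPM (counts scaled to the size of the library) in the 6 WT mRNA libraries and at 7.10 to 10.8 in the 6 mta libraries, so the groups did not overlap. Leaf genes were abundant in every mRNA library (CAB1, a chlorophyll a/b-binding protein, at 4427 to 26720 CPM), the flower genes AP3, PI and AG stayed at or under 3.39 CPM and the seed genes CRA1, CRU3 and OLEO1 at or under 0.545. The root gene PYK10 was at 31.6 to 200.5 CPM. Fewer cells of a type and less RNA per cell cannot be told apart in these bulk samples.

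The part of all nuclear counts that fell on the 121 genes moved differently in the 3 kinds of RNA. In mRNA it was 1.26% ± 0.229 (SD, n = 3) in WT control, 1.01% ± 0.0426 in WT drought, 1.21% ± 0.324 in mta control and 0.570% ± 0.0806 in mta drought. Without WT control replicate 3, which was at 1.52%, the WT control mean was 1.13%. The 3 mta drought libraries, at 0.508 to 0.661%, lay below all 9 others, of which the lowest was at 0.933%. In polysomal RNA drought went the other way. The share there was 0.325% ± 0.0103 in WT control and 0.565% ± 0.0196 in WT drought, and in mta it was 0.360% ± 0.0206 and 0.480% ± 0.0195. In GMUCT it was 0.753% ± 0.0219 in WT control and 0.422% ± 0.00569 in WT drought, and 0.729% ± 0.0829 and 0.477% ± 0.0211 in mta. A single gene, AT5G40450, held 0.148 of the 0.753% in WT control GMUCT and 0.00592% in WT drought. Without it the GMUCT shares were 0.605% ± 0.0206 and 0.416% ± 0.00588 in WT and 0.629% ± 0.0600 and 0.465% ± 0.0182 in mta. In mRNA AT5G40450 held 0.0920% in WT control and 0.00463% in WT drought. Without it the mRNA shares were 1.16% ± 0.217 and 1.00% ± 0.0423 in WT control and drought. In mta they were 1.15% ± 0.305 and 0.566% ± 0.0803. Control and drought libraries did not overlap in polysomal RNA or in GMUCT in either genotype, but with 3 libraries against 3 the smallest 2-sided p an exact permutation test can give is 0.1.

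**Figure D1:**
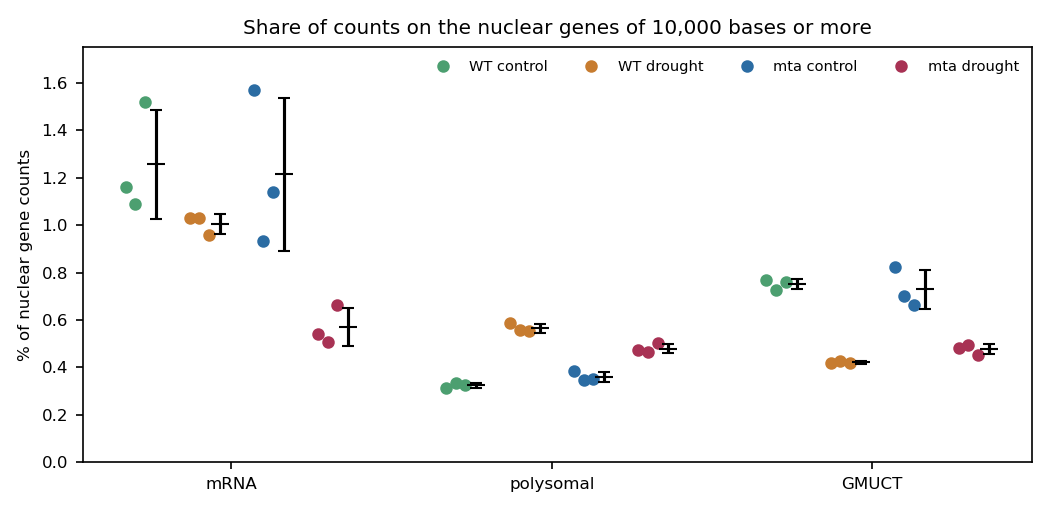
Percent of nuclear gene counts that fell on the 121 longest genes in each library (points), with mean and SD (bars, n = 3) beside them, by assay and group. The 3 mta drought mRNA libraries (0.508 to 0.661%) sit below every other mRNA library, whereas the polysomal share was higher under drought in both genotypes.

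Of the 121 genes, 115 passed the filter on low counts in mRNA, 117 in polysomal RNA and 118 in GMUCT, and 2 passed in none of them. Genes were tested across the whole table with edgeR's quasi-likelihood test, and a call is an adjusted p under 0.05. In WT, drought moved the mRNA of the longest genes in both directions: 22 of 115 rose (32.6% of all tested genes rose) and 36 fell (35.3%), together 58 members against 67.9% of all tested genes called either way, and the median log2 fold change was -0.14 against -0.01 over all tested genes. In mta, AT2G34110 and AT3G60961 were the 2 of 115 that rose (35.1% of all) and 103 fell (35.3%, or 70.3% called either way), with a median of -1.01 against -0.01. The difference between these drought effects was itself tested gene by gene. It was lower in mta for 84 of 115 members (18% of all tested genes) and higher for 1 (19.6%). Under drought 91 members were lower in mta than in WT (26.1% of all) and 4 were higher (26.6%, or 52.7% called either way), namely XIA, AT1G58602, AT3G60961 and AT5G49680. In control plants 12 were higher (8.5%) and 2 lower (9.28%), namely AIR9 and AT5G40450.

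The fall in mta was graded by span over the whole transcriptome. Its median log2 fold change was -0.82 in the 54 tested genes of 9 to 10 kb, -0.66 in those of 5 to 9 kb, -0.04 in those of 2 to 5 kb and 0.32 in those under 2 kb. In WT the same medians were 0.10, -0.03, 0.02 and -0.07 and showed no such order. The members' median deviation from their mean over all mRNA libraries was -0.74, -0.86 and -0.41 on the log2 scale in the 3 mta drought libraries and lay between -0.01 and 0.71 in the other 9. The highest, 0.71, was mta control replicate 1, followed by WT control replicate 3 at 0.47. The latter was the shallowest mRNA library, with 1504013 counts, and plastid genes took 11.7% of them, where they took 1.93 to 4.36% of the remaining mRNA libraries, and the part of either in its value was not tested. A trend with span of this kind was therefore fitted in each library and subtracted before the tests were repeated. It was fitted over all tested nuclear genes, members included, and span is what chose the members. Its removal thus brings their median change close to 0 by construction (0.09 in mta). Calls made after it, here and below, are relative to genes of like span and are no measure of an absolute rise or fall. The share of all tested genes called after its removal was not counted. These counts therefore have no background beside them, and whether they are unusual was not tested. With it removed, 49 members rose and 31 fell in mta under drought, and 38 that had fallen were then called as risen. In WT 39 rose and 38 fell, and 22 of the higher and 35 of the lower calls were the same genes as before. For the difference between genotypes 17 members were then called higher, 1 of them as before, and 5 of the 84 lower calls remained. The 5 were SEX1, ACC1, GSL03, RRP5 and EMB3012. For mta against WT under drought 31 were then higher and 10 lower.

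**Figure D2:**
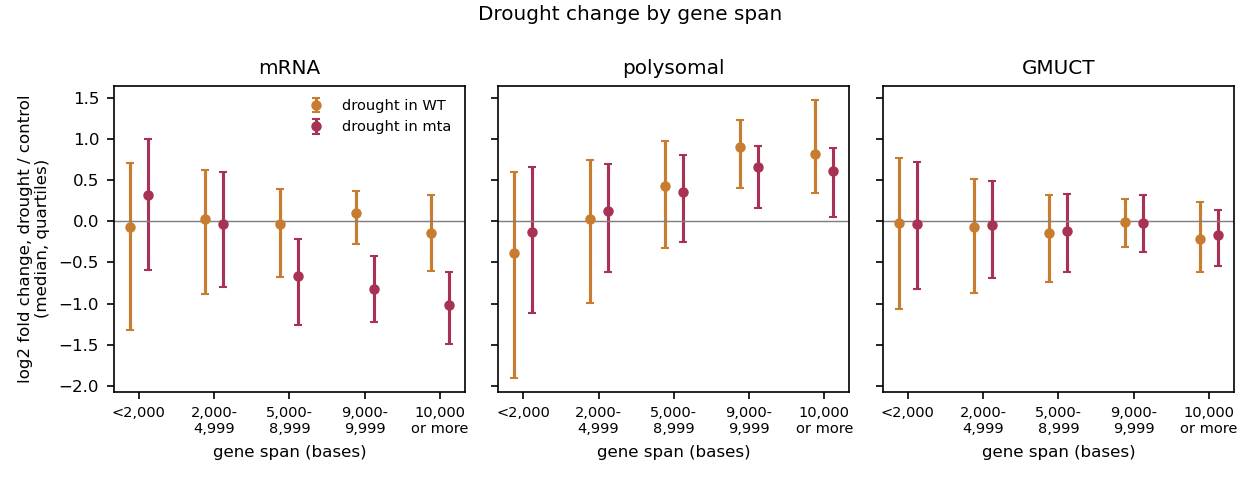
Median log2 fold change of drought over control (points) with quartiles (bars) for tested genes in 5 classes of gene span, in mRNA, polysomal RNA and GMUCT, for WT and mta. The mRNA medians of mta descend from 0.32 under 2 kb to -1.01 at 10000 bases or more, and the polysomal medians of both genotypes rise up to 9 to 10 kb and are slightly lower in the longest class.

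Without mta control replicate 1, the mRNA library in which the members were highest, 28 members rose and 42 fell under drought in WT, and 3 rose and 96 fell in mta. The comparison of the control groups depended on single libraries. Without that replicate 7 members were higher and 13 lower in mta than in WT, without mta control replicate 3 the counts were 7 and 0, without WT control replicate 1 they were 6 and 1, and without WT control replicate 2 they were 5 and 3. After removal of the span trend they were 11 and 11.

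The cytoskeletal members had the lowest median mRNA change of the role groups in both genotypes (-2.58 in WT and -3.21 in mta), with 4 of 5 falling and 1 rising in WT and all 5 falling in mta. Over all tested members 31.3% fell and 19.1% rose in WT mRNA, and 89.6% fell and 1.74% rose in mta. Counts of role groups here and below are to be read beside these shares. POK1 and POK2 are kinesins that keep the phragmoplast aligned with the chosen division plane, AIR9 is a microtubule-associated protein of the division site, SPK1 activates ROP GTPases in cell shaping and MOR1 stabilises microtubules. POK2 (AT3G19050, chromosome 3, 6577724 to 6590253, plus strand) had mRNA levels of 21.5, 15.2 and 18.2 CPM in WT control, 0.456, 0.549 and 0.226 in WT drought and 24.8, 11.8 and 11.1 in mta control, and no count in any of the 3 mta drought libraries. Drought and control did not overlap in either genotype. The fall in WT was -5.42 ± 0.51 on the log2 scale (SE; adjusted p = 9.42e-09, edgeR). In mta 0 counts stood against 229, which makes the level at least 62.8-fold lower when the floor of 3 counts over the group is used. POK2 fell in polysomal RNA too, by -4.79 ± 0.52 in WT and -2.58 ± 0.43 in mta (adjusted p = 8.71e-09 and 1.02e-05, edgeR).

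AIR9 (AT2G34680, chromosome 2, 14616601 to 14629207, minus strand) was at 118.8, 107.7 and 149.2 CPM in WT control mRNA and at 21.0, 22.2 and 18.5 in WT drought. In mta it went from 107.2, 68.9 and 82.8 CPM to 9.36, 9.86 and 8.81. The groups were far apart, with log2 changes of -2.58 ± 0.16 in WT and -3.21 ± 0.18 in mta (adjusted p = 2.19e-12 and 5.68e-13, edgeR). AIR9 fell by 1.83 and 1.78 on the log2 scale in the polysomal RNA of WT and mta as well. SPK1 fell in mRNA by -1.68 ± 0.17 and -2.14 ± 0.18 (adjusted p = 9.02e-09 and 5.77e-10, edgeR) and POK1 by -2.67 ± 0.38 and -4.49 ± 0.47 (adjusted p = 2.45e-06 and 2.76e-08, edgeR). MOR1 differed from them: it rose by 0.39 ± 0.12 in WT and fell by -0.81 ± 0.13 in mta (adjusted p = 0.00816 and 7.53e-06, edgeR). With the span trend removed, 4 of the 5 still fell in both genotypes and MOR1 was called higher in both, at 0.49 and 0.38.

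Class XI myosins carry organelles along actin filaments and share much of their sequence, so reads of close copies may be split between them. Of 9 members 8 were tested in mRNA. In WT 4 fell and none rose, and in mta 7 fell and none rose, whereas with the span trend removed 4 rose and 2 fell in mta. XIF (AT2G31900, chromosome 2, 13560370 to 13570469, minus strand) was at 16.8, 13.2 and 18.9 CPM in WT control mRNA, 1.82, 1.37 and 0.902 in WT drought, 12.0, 15.6 and 10.4 in mta control and 0.253, 0.266 and 0.245 in mta drought. Both drought groups lay below both control groups, by -3.50 ± 0.30 in WT (adjusted p = 9.06e-10, edgeR). In mta 3 counts stood against 176, a ratio of 48.3 with a counting interval of 16.3 to 236.5. Under drought mta and WT also differed (adjusted p = 0.00947, edgeR), on 3 counts against 17, a ratio of 5.36 with an interval of 1.55 to 28.6. That call ended when the span trend was removed. XIB fell by -1.94 ± 0.35 in WT and -3.49 ± 0.42 in mta (adjusted p = 4.08e-05 and 2.18e-07, edgeR).

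XIA, another class XI myosin (AT1G04600, chromosome 1, 1261762 to 1272588, plus strand), did not follow watering in mRNA but separated the genotypes. Its mRNA was at 1.27, 2.02 and 0.700 CPM in WT control and 1.14, 2.47 and 1.58 in WT drought, against 12.2, 10.2 and 8.99 in mta control and 9.86, 8.53 and 10.0 in mta drought. Every mta library lay above every WT library. The difference was 2.77 ± 0.32 in control and 2.47 ± 0.31 under drought on the log2 scale (adjusted p = 1.01e-06 and 8.09e-07, edgeR). XIA was higher in mta in the other 2 kinds of RNA too, by 2.51 and 3.70 in polysomal RNA and by 2.02 and 3.31 in GMUCT in control and drought.

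Callose synthases lay down the glucan callose at cell plates, plasmodesmata and wounds. Of 10 members 8 were tested in mRNA. In WT 1 rose and 3 fell, and in mta 7 fell, while with the span trend removed 3 rose and 3 fell in WT and 4 rose and 1 fell in mta. GSL03 (AT2G31960, chromosome 2, 13588522 to 13600430, plus strand) was at 152.7, 155.7 and 198.2 CPM in WT control mRNA, 363.1, 361.9 and 334.4 in WT drought, 227.2, 138.4 and 158.1 in mta control and 127.9, 120.2 and 163.5 in mta drought. WT drought stood above all others and the 2 mta groups overlapped. The change was 1.08 ± 0.15 in WT and -0.35 ± 0.15 in mta (adjusted p = 1.27e-06 and 0.0405, edgeR), the latter 0.73 and called higher without the span trend, and the difference between genotypes was -1.43 ± 0.21 (adjusted p = 1.40e-05), which kept its call without the span trend at -0.46. In polysomal RNA GSL03 rose in both, from 49.2, 55.7 and 57.5 CPM to 225.8, 213.5 and 232.0 in WT and from 55.3, 47.3 and 49.9 to 146.0, 132.2 and 143.3 in mta. These changes were 2.05 ± 0.06 and 1.47 ± 0.06 on the log2 scale (adjusted p = 1.32e-19 and 1.90e-16, edgeR).

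CALS1 and GSL12, also callose synthases, fell in the mRNA of both genotypes. CALS1 (AT1G05570, chromosome 1, 1647575 to 1659611, minus strand) fell by -1.22 ± 0.15 in WT and -1.12 ± 0.14 in mta (adjusted p = 2.89e-07 and 5.53e-07, edgeR). Its polysomal level was 34.4, 41.7 and 36.5 CPM in WT control and 33.6, 30.9 and 24.6 in WT drought, but 41.4, 41.4 and 38.6 in mta control and 58.9, 65.5 and 61.1 in mta drought. The 3 mta drought libraries were above the 9 others, and the drought effects differed by 0.95 ± 0.13 (adjusted p = 1.48e-06, edgeR). GSL12 fell by -1.88 ± 0.17 and -2.81 ± 0.18 in mRNA (adjusted p = 1.74e-09 and 6.66e-12, edgeR), and by -0.92 and -1.09 in polysomal RNA of WT and mta. CALS1 and GSL03 are close copies, so how the reads of each were assigned is uncertain.

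Among regulators of growth and translation, TOR is the kinase at the centre of nutrient signalling, GCN2 phosphorylates the initiation factor eIF2α, and ILA, which is related to yeast Gcn1, is needed for GCN2 activity. Of 6 members with these and related roles 1 rose and 4 fell in WT mRNA, and 5 fell in mta. The riser was GCN2 (AT3G59410, chromosome 3, 21948851 to 21959410, plus strand), at 27.5, 23.1 and 25.9 CPM in WT control, 53.6, 54.9 and 48.5 in WT drought, 36.4, 33.5 and 30.5 in mta control and 25.3, 31.4 and 32.8 in mta drought. WT drought lay above every other group, whereas the 2 mta groups overlapped. The change was 1.04 ± 0.13 in WT (adjusted p = 2.84e-07, edgeR) and the difference between genotypes -1.20 ± 0.18 (adjusted p = 1.98e-05), but with the span trend removed GCN2 was called higher in both, by 1.12 and 0.84, and the difference of -0.27 was no call. TOR mRNA was -0.24 ± 0.18 in WT (adjusted p = 0.233) and -1.07 ± 0.18 in mta (adjusted p = 1.66e-05, edgeR), where it was 0.25 and called higher without the trend. TOR polysomal RNA rose by 1.04 ± 0.08 and 0.87 ± 0.08 (adjusted p = 9.80e-12 and 3.42e-10, edgeR).

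The ribosome assembly members were MDN1, the giant AAA ATPase midasin that strips assembly factors from the maturing large subunit, and RRP5, which is needed to process ribosomal RNA. MDN1 (AT1G67120, chromosome 1, 25069428 to 25095638, minus strand) was at 67.2, 67.4 and 112.8 CPM in WT control mRNA, 68.8, 75.2 and 69.9 in WT drought, 151.3, 66.3 and 88.3 in mta control and 28.1, 26.9 and 35.0 in mta drought. Mta drought stood apart from all others. The fall was -1.77 ± 0.23 (adjusted p = 5.54e-07, edgeR) and the difference from WT -1.63 ± 0.32 (adjusted p = 0.000327), and the latter ended when the span trend was removed, at -0.21. In polysomal RNA MDN1 rose in WT from 8.50, 10.6 and 11.5 CPM to 41.5, 34.4 and 34.8, while mta had 24.1, 20.4 and 19.9 in control and 22.1, 21.3 and 28.0 under drought. The WT groups were far apart and the mta groups overlapped, and the polysomal difference of -1.71 ± 0.18 (adjusted p = 1.22e-08, edgeR) kept its call without the span trend, at -1.10. RRP5 rose in the polysomal RNA of both genotypes, from 7.80, 7.01 and 7.37 CPM to 33.2, 31.4 and 30.9 in WT and from 11.1, 7.0 and 9.0 to 14.4, 16.4 and 15.2 in mta, with no overlap in either. Its changes were 2.1 ± 0.14 and 0.77 ± 0.13 on the log2 scale (adjusted p = 4.58e-13 and 1.72e-05, edgeR), and the mta call ended when the span trend was removed, at 0.23.

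Genes for DNA replication, repair and division included ATM and ATR, the kinases that signal DNA damage, and TIL1, the catalytic subunit of DNA polymerase epsilon. Of 7 tested 1 rose and 3 fell in WT mRNA and all 7 fell in mta, but with the span trend removed 1 rose and 3 fell in each genotype. ATM (AT3G48190, chromosome 3, 17801289 to 17828553, plus strand) was the longest member. Its mRNA was at 31.6, 35.8 and 34.3 CPM in WT control, 36.9, 35.2 and 34.1 in WT drought, 40.2, 31.4 and 31.9 in mta control and 15.7, 12.8 and 17.9 in mta drought. The first 3 groups overlapped and mta drought lay below them. That fall was -1.16 ± 0.14 (adjusted p = 3.28e-07, edgeR), against 0.07 ± 0.13 in WT, and neither genotype had a call once the span trend was removed. ATR was scarce, at 0.759, 1.07 and 1.47 CPM in mta drought mRNA and 4.33, 6.32 and 4.74 in WT drought. The 2 groups did not overlap, with a difference of -2.17 ± 0.47 (adjusted p = 0.000476, edgeR).

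The 7 chromatin genes (the remodellers SYD, CHR4, CHR5, PKL and RGD3, the histone methyltransferase SDG2 and the TAF1-like HAF1) rose in 3 cases and fell in none in WT mRNA, fell in all 7 in mta mRNA, and rose in all 7 in the polysomal RNA of both genotypes. The 6 transcription and export genes (the Mediator subunits MED12 and GCT, the RNA polymerase III subunits NRPC1 and NRPC2, THO2 and the nuclear pore protein NUA) rose in 2 cases in WT mRNA and fell in all 6 in mta, and 6 and 4 of them rose in the polysomal RNA of WT and mta. Of all tested members 89.6% fell in mta mRNA, and 75.2 and 68.4% rose in the polysomal RNA of WT and mta. Such counts are thus largely shared by the other members. With the span trend removed 3 chromatin genes rose and 1 fell in the mRNA of each genotype, and 2 of the transcription and export genes rose and none fell. In polysomal RNA 4 chromatin genes then rose and 1 fell in WT and 4 rose in mta, and of the transcription and export genes 4 rose in WT and 2 rose and 2 fell in mta. CHR4 (AT5G44800) gave one of the largest contrasts between the assays. Its mRNA went from 135.6, 106.5 and 173.0 CPM to 109.9, 98.6 and 91.8 in WT and from 192.3, 87.7 and 119.1 to 44.0, 40.2 and 60.5 in mta. Its polysomal level went from 11.2, 15.2 and 13.6 CPM to 40.5, 38.9 and 34.5 in WT and from 13.3, 7.76 and 6.98 to 27.1, 22.6 and 33.6 in mta. The WT mRNA groups overlapped and the other 3 pairs did not. The polysomal rises were 1.51 ± 0.17 and 1.57 ± 0.18 (adjusted p = 2.16e-08 and 1.93e-08, edgeR), and both kept their call without the span trend.

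**Figure D3:**
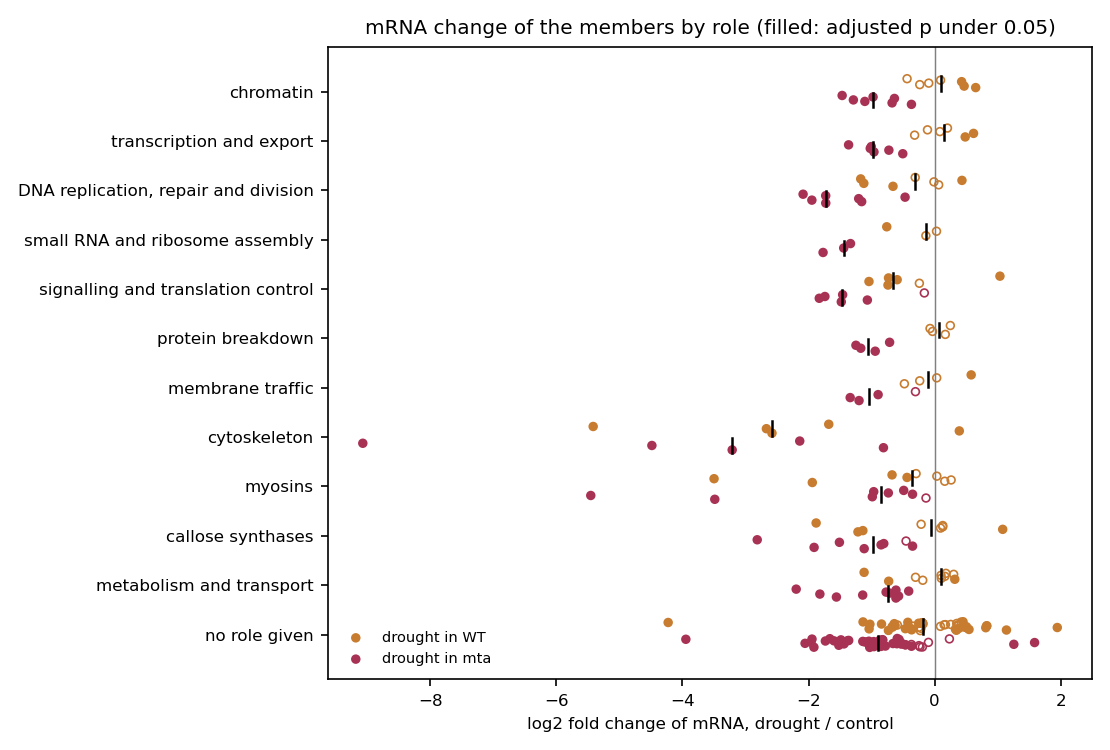
Log2 fold change of mRNA, drought over control, for every tested member by role (orange WT, red mta, filled where the adjusted p is under 0.05, black bars the medians). Of the 115 mta points 112 lie left of 0. The leftmost point, POK2 in mta at -9.07, rests on a group with 0 counts and is no bound.

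The protein breakdown members were the HECT ubiquitin ligases UPL1 and UPL2, the proteasome activator PA200 and BIG, a giant protein of auxin transport. None of the 4 was called in WT mRNA (median 0.07), all 4 fell in mta (median -1.06), and all 4 rose in the polysomal RNA of both genotypes (medians 1.48 and 0.87). Most tested members also fell in mta mRNA (89.6%) and rose in the polysomal RNA of WT and mta (75.2 and 68.4%). Relative to the span trend 2 were called higher and none lower in the mRNA of each genotype, and in polysomal RNA 4 were higher in WT and 3 in mta. BIG (AT3G02260) had polysomal levels of 75.5, 77.4 and 81.9 CPM in WT control, 288.2, 265.1 and 275.8 in WT drought, 111.6, 85.5 and 96.2 in mta control and 171.5, 175.3 and 185.9 in mta drought. Each drought group lay above its control, by 1.82 ± 0.07 and 0.86 ± 0.07, and the effects differed by -0.96 ± 0.09 (adjusted p = 5.09e-09, edgeR). The 4 membrane traffic members (SPI, SHBY, MIN7 and GRV2) all rose in the polysomal RNA of both genotypes, and in mRNA 1 rose in WT and 3 fell in mta. With the span trend removed 2 rose and 2 fell in WT polysomal RNA and 2 rose in mta, while in mRNA 1 rose and 1 fell in WT and 1 rose and none fell in mta.

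The 10 members for metabolism and transport include 2 of the 5 most abundant genes per length. Mean mRNA levels over the 12 libraries were highest in GLT1, the NADH-dependent glutamate synthase, with 46.0 CPM per kb of span, followed by AT5G40450 (35.3), UPL2 (25.7), BIG (23.6) and SEX1 (22.6), the glucan water dikinase that opens starch for breakdown. Of the 10 genes for metabolism and transport 1 rose and 2 fell in WT mRNA and all 10 fell in mta, and with the span trend removed 6 rose and 3 fell in mta. GLT1 (AT5G53460, chromosome 5, 21700187 to 21710296, plus strand) was at 721.1, 626.1 and 927.9 CPM in WT control, 360.4, 369.6 and 314.6 in WT drought, 802.5, 477.8 and 574.5 in mta control and 121.6, 125.0 and 158.3 in mta drought. Drought and control were separate in each genotype. The falls were -1.12 ± 0.16 and -2.20 ± 0.16 (adjusted p = 1.59e-06 and 8.85e-11, edgeR). GLT1 still fell without the span trend, by -0.99 and -1.20, and its difference of -1.08 then shrank to -0.21 and lost its call. In polysomal RNA GLT1 differed from control by 0.18 ± 0.05 in WT and 0.05 ± 0.05 in mta (adjusted p = 0.00351 and 0.423, edgeR).

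SEX1 (AT1G10760, chromosome 1, 3580830 to 3590928, minus strand) was level in WT mRNA, at 271.5, 239.3 and 308.8 CPM in control and 244.3, 237.8 and 233.6 under drought, and fell in mta from 341.1, 262.4 and 290.6 to 95.8, 96.4 and 111.6. The WT groups overlapped and the mta groups did not. The mta change was -1.56 ± 0.11 (adjusted p = 5.08e-11, edgeR) and the difference from WT -1.37 ± 0.15 (adjusted p = 4.43e-07), and both kept their call without the span trend, at -0.58 and -0.51. ACC1, the cytosolic acetyl-CoA carboxylase, fell by -1.14 ± 0.15 in mta mRNA (adjusted p = 9.84e-07, edgeR), which was -0.10 and no call without the trend. ACC1 has a close copy in ACC2, also a member.

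The role of 49 members was not given here, and several of the largest changes were among them. AT5G40450 (chromosome 5, 16184650 to 16195888, minus strand) was at 826.8, 767.2 and 986.7 CPM in WT control mRNA, 45.6, 51.1 and 41.0 in WT drought, 863.8, 514.0 and 534.0 in mta control and 40.5, 38.6 and 44.8 in mta drought. Every drought library lay more than an order of magnitude below every control library. The changes were -4.23 ± 0.17 in WT and -3.95 ± 0.17 in mta (adjusted p = 1.89e-15 and 9.21e-15, edgeR). In GMUCT it went from 1273, 1261 and 1289 CPM to 78.9, 65.5 and 59.4 in WT and from 1065, 803.3 and 726.4 to 139.4, 165.9 and 100.3 in mta. The GMUCT drought effects differed by 1.53 ± 0.24 (adjusted p = 3.19e-05, edgeR).

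AT1G58602 (chromosome 1, 21746354 to 21766048, plus strand) was the only member whose mRNA drought effect was called higher in mta than in WT before the span trend was removed. It was at 335.7, 328.6 and 495.8 CPM in WT control, 192.4, 185.4 and 181.7 in WT drought, 353.5, 345.5 and 349.3 in mta control and 302.4, 267.8 and 313.0 in mta drought. WT drought lay below all other groups. The difference of drought effects was 0.79 ± 0.17 in mRNA (adjusted p = 0.000783, edgeR). In polysomal RNA the WT level fell from 132.8, 146.5 and 136.8 CPM to 88.3, 80.2 and 77.1, and the mta level rose from 115.2, 109.6 and 106.8 to 209.7, 191.1 and 221.7. The 2 genotypes moved in opposite directions there, with a difference of 1.67 ± 0.08 (adjusted p = 1.34e-14, edgeR). In GMUCT the difference was 0.97 ± 0.16 (adjusted p = 5.40e-05).

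AT5G49680 (chromosome 5, 20176080 to 20188567, plus strand) was higher in mta under both regimes and rose with drought on polysomes. Its polysomal level was 1.89, 1.70 and 1.71 CPM in WT control, 6.29, 5.36 and 7.97 in WT drought, 5.30, 4.73 and 3.96 in mta control and 20.4, 19.3 and 17.5 in mta drought. Each drought group was above its control and each mta group above its WT group. The rises were 1.89 ± 0.19 and 2.03 ± 0.17 (adjusted p = 2.39e-09 and 1.53e-10, edgeR). In mRNA mta exceeded WT by 0.97 ± 0.23 in control and 0.79 ± 0.21 under drought (adjusted p = 0.00473 and 0.00379, edgeR), and the latter call ended at an adjusted p of 0.0549 without mta drought replicate 3.

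SECA2, a subunit of a chloroplast protein translocase (AT1G21650), overlaps another gene on the same strand over 3411 bases. It was at 19.0, 14.4 and 15.4 CPM in WT control mRNA and 37.2, 43.4 and 29.5 in WT drought, a rise of 1.14 ± 0.17 (adjusted p = 4.72e-06, edgeR), and the 2 groups did not overlap. AT2G34110 rose by 1.95 ± 0.48 in WT (adjusted p = 0.00121, edgeR) but is scarce, at 1.63, 1.22 and 0 CPM in control and 3.88, 4.94 and 5.86 under drought. Antisense rows cover 8722 of its 10767 bases, which strand-aware mRNA counting keeps apart and the unstranded GMUCT counting does not. In all, 91 members overlapped no other row, 27 overlapped an antisense row and 5 a row on the same strand.

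**Figure D4:**
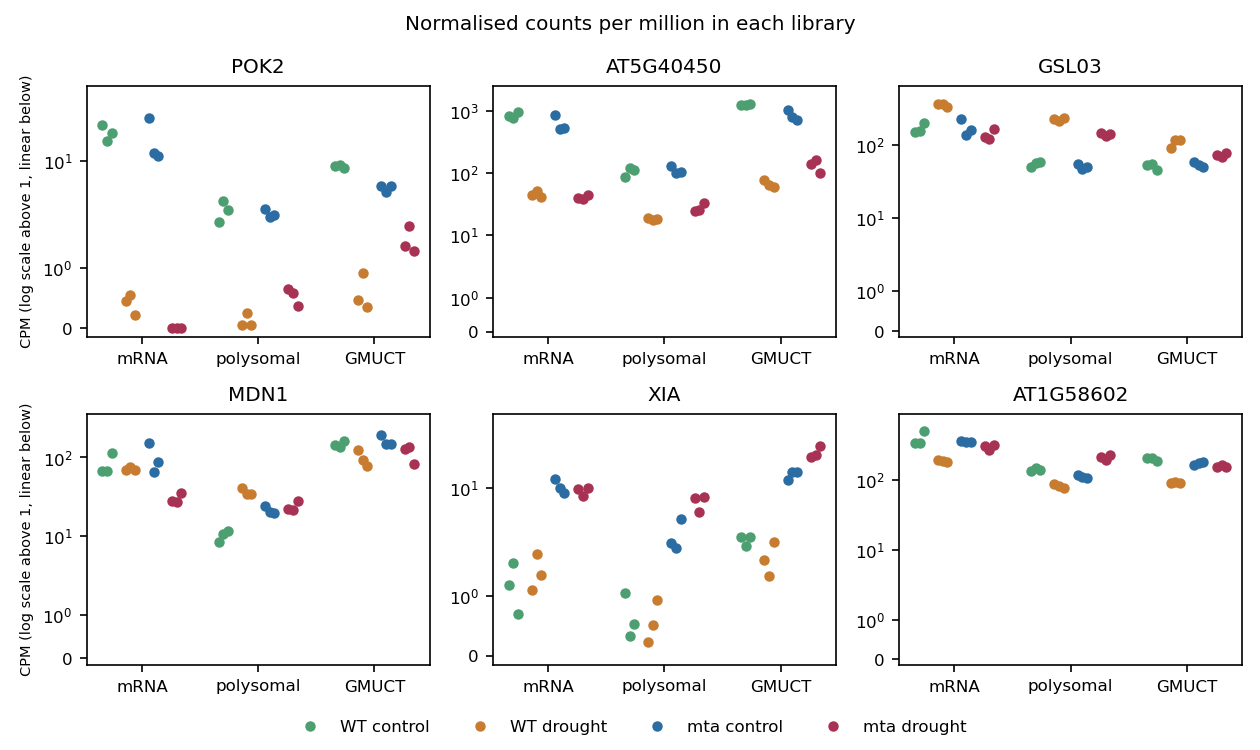
Normalised counts (CPM) of 6 members in each of the 36 libraries (log axis above 1 CPM, linear below), coloured by group. POK2 and AT5G40450 lie low in all drought groups, XIA is high in both mta groups, and AT1G58602 is lowest in WT drought in all 3 assays.

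In polysomal RNA drought raised most of the longest genes in both genotypes. In WT 88 of 117 rose (36.3% of all tested genes) and 14 fell (40.1%, or 76.4% called either way), with a median log2 change of 0.81 against -0.06 over all tested genes. In mta 80 rose (37.8%) and 14 fell (32.8%, or 70.6% called either way), with a median of 0.61 against 0.06. The difference was lower in mta for 55 members (18.9% of all) and higher for 8 (26.5%). Between genotypes under drought 16 were higher in mta (31.6%) and 60 lower (27.6%, or 59.2% called either way), and in control 31 were higher (19.1%) and 10 lower (21%). This too followed span, with medians in WT of 0.90 at 9 to 10 kb, 0.43 at 5 to 9 kb, 0.03 at 2 to 5 kb and -0.39 under 2 kb. Once the span trend was removed 44 rose and 40 fell in WT and 41 rose and 35 fell in mta, 19 of the 88 WT risers then being called as fallen. For the difference the counts became 20 higher and 23 lower, and for mta against WT under drought 34 higher and 19 lower.

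The polysome association, the change in polysomal RNA relative to that in mRNA, rose with drought in both genotypes. In WT it was higher for 96 of 117 members (11.8% of all tested genes) and lower for none (6.93%), with a median of 1.04. In mta it was higher for 110 (21.6%) and lower for none (14%), with a median of 1.59. The largest in WT were RRP5 at 2.12 ± 0.21, MDN1 at 2.03 ± 0.28 and CHR4 at 1.99 ± 0.30 (adjusted p = 1.16e-08, 3.76e-06 and 1.84e-05, edgeR). CHR4 led in mta at 3.10 ± 0.32 (adjusted p = 3.98e-09), among members with enough mRNA. Without the span trend 10 were higher and 10 lower in WT and 9 were higher and 25 lower in mta, and all 25 of these had been called higher before. The association shares the mRNA libraries, so a fall of mRNA raises it by construction.

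Its drought effect was larger in mta for 18 of 117 members (6.79% of all) and smaller for none (2.8%), among them AT5G15680 at 1.54 ± 0.29 (adjusted p = 0.000533, edgeR). The count was 45 without mta control mRNA replicate 2 and 33 without WT control mRNA replicate 3. It was 11 without WT control mRNA replicate 2, 9 without WT drought mRNA replicate 1, and 10 each without mta control replicate 1, mta drought replicate 1 or mta drought replicate 2 of mRNA. After removal of the span trend AT5G15680 alone was higher, at 0.89, and 5 were lower, namely MDN1, SWEETIE, AT2G36810, AT5G23110 and AT5G61140.

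In GMUCT drought changed the longest genes about as often in mta as in WT. In WT 18 of 118 rose (27.8% of all tested genes) and 36 fell (33.5%), with a median of -0.21 against -0.07 over all. In mta 16 rose (25.6%) and 33 fell (28.9%), with a median of -0.17 against -0.06. The drought effects differed upward for 9 members (13%) and downward for 7 (10.6%), which is not above the background. Between genotypes 15 were higher (12.1%) and 8 lower (10.7%) in control, and 21 higher (20%) and 11 lower (18.4%) under drought. After removal of the span trend 29 rose and 25 fell in WT and 24 rose and 22 fell in mta. The small counts moved with single libraries: the 16 for the difference became 10 without WT control replicate 1, WT drought replicate 3 or mta control replicate 1. The 23 for the control groups became 13, 14 and 11 without WT control replicate 1, WT control replicate 2 and mta control replicate 2, and the 32 under drought became 21 without WT drought replicate 2.

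The uncapped share, the change in GMUCT relative to that in mRNA, was called for few members in WT, with 3 of 118 higher (2.93% of all tested genes) and 3 lower (1.66%) and a median of 0.03. The 3 higher were XIF, ILA and AT5G10540, and the 3 lower were SEX1 at -0.86 ± 0.17 (adjusted p = 0.00154, edgeR), GCN2 and CHR5. Of these calls SEX1 and ILA held in each alternative tried, and the total fell to 3 without WT control mRNA replicate 1 or WT drought GMUCT replicate 1. In mta 78 were higher (10.4%) and 1, AT3G60961, lower (8.64%), with a median of 0.91, and 52 were higher and none lower without mta control mRNA replicate 1. The uncapped share also uses the mRNA libraries, so a fall of mRNA raises it by construction. In mta the members' median drought change was -1.01 in mRNA and -0.17 in GMUCT itself. With the span trend removed 4 were higher and 14 lower, and in WT 4 were higher and 2 lower.

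The drought effect on the uncapped share was larger in mta for 31 of 118 members (3.79% of all) and smaller for none (3.38%), with NRPC1 at 2.60 ± 0.51 (adjusted p = 0.00304, edgeR). The count was 52 without WT control mRNA replicate 3 and 51 without mta control mRNA replicate 2. It was 15 without WT control mRNA replicate 2 or mta control mRNA replicate 1, 18 without WT control mRNA replicate 1 or WT drought GMUCT replicate 2, and 20 without WT drought mRNA replicate 1 or 2. It was 19 without mta drought mRNA replicate 1 or WT drought GMUCT replicate 3, and 17 without mta drought replicate 2 of mRNA or of GMUCT. Once the span trend was removed no member was called in edgeR.

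For single genes the 3 assays often disagreed. Of the 115 members tested in all 3, the commonest pattern of drought in mta was a fall in mRNA, a rise in polysomal RNA and no call in GMUCT, in 51 members (44.4%, against 3.70% of the 16957 genes tested in all 3). In WT the commonest was no call in mRNA, a rise in polysomal RNA and no call in GMUCT, in 40 (34.8%, against 7.15%). All 3 assays fell together in 12 members in WT (10.4%, against 27.5%) and 10 in mta (8.70%, against 20.5%). These patterns rest on calls that move with the span trend: 31 of the 103 mRNA falls and 41 of the 80 polysomal rises in mta were kept without it. The 3 assays were normalised separately, so these calls are relative to the other genes of the same assay.

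The m6A immunoprecipitations gave peak lists, 1 per library, with 7746 to 12228 peaks each and 126111 in all, of which 79 to 148 had their summit on a member. A gene is called marked where at least 2 of the 3 libraries of a group had a summit inside its span on its strand. Of the 121 longest genes 96 were marked in WT control, 95 in WT drought, 89 in mta control and 69 in mta drought. As a share these are 79.3, 78.5, 73.6 and 57.0%. Shorter genes were marked less often, apart from those just below the limit, which were marked more often than the members. In WT control the share was 83.1% of the genes of 9 to 10 kb, 71.5% of those of 5 to 9 kb, 51.1% of those of 2 to 5 kb and 16.5% of those under 2 kb. In mta drought the same classes were at 62.7, 53.6, 39.1 and 14.7%. These are shares of all annotated genes, expressed or not. The mRNA filter was passed by 115 of the 121 members but by 5804 of the 13001 genes under 2 kb. The part of expression in this order was not tested.

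The number of members with a peak was 96, 98 and 86 in the WT control libraries, 94, 90 and 94 in WT drought, 90, 72 and 95 in mta control and 73, 66 and 77 in mta drought. WT and mta did not overlap under drought and overlapped in control, and the smallest p of an exact test of 3 against 3 is 0.1. The libraries also differed in all nuclear genes with a peak, at 9995 to 10605 in WT drought and 6914 to 8872 in mta drought. Of the 95 members marked in WT drought 26, or 27.4%, were not marked in mta drought, and over all nuclear genes this was 27.8% of 10364. No member was marked in mta drought only, against 312 nuclear genes. AT2G17930, AT4G36080, SPK1, ACC2, AT3G24880, AT5G15680 and AT4G17610 had a summit in 3 of 3 WT drought and 0 of 3 mta drought libraries. These 7 were 8.24% of the 85 members with a summit in all 3 WT drought libraries, against 11.1% over all nuclear genes, so neither loss was above the background. No member showed the reverse, against 83 nuclear genes. A peak is harder to call on a transcript with fewer reads, and mRNA of the members was lower in the mta drought libraries, so the part of each cannot be told apart here.

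The summits lay at the far 3′ end of the span. Their median position was 97.1 to 98.4% of the span in the 12 libraries, against 89.5 to 92.5% for the other nuclear genes, which are shorter. Counted in bases the summits of marked genes were about as far from the end in every span class: in WT control the median distance was 256.5 bases in the members and 234, 241, 220 and 204 bases in the classes from 9 to 10 kb downward. In ATM all 12 libraries had 1 summit each, at 99.5 to 99.6% of its 27265 bases and a median of 100 bases from the end of the span. AT1G48090 had 12 summits, also 1 per library, at 99.6%, and AT4G17140 had 12 between 98.9 and 99.4%. The last 10% of the span held 82.8% of member summits in WT control, 82.7% in WT drought, 69.6% in mta control and 84.0% in mta drought. The first 50% of the span held 9.91% of member summits in WT control, 10.4% in WT drought, 16.4% in mta control and 9.13% in mta drought. In the other nuclear genes it held 8.54, 8.84, 20.5 and 13.9%, and mta control was the highest there too.

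**Figure D5:**
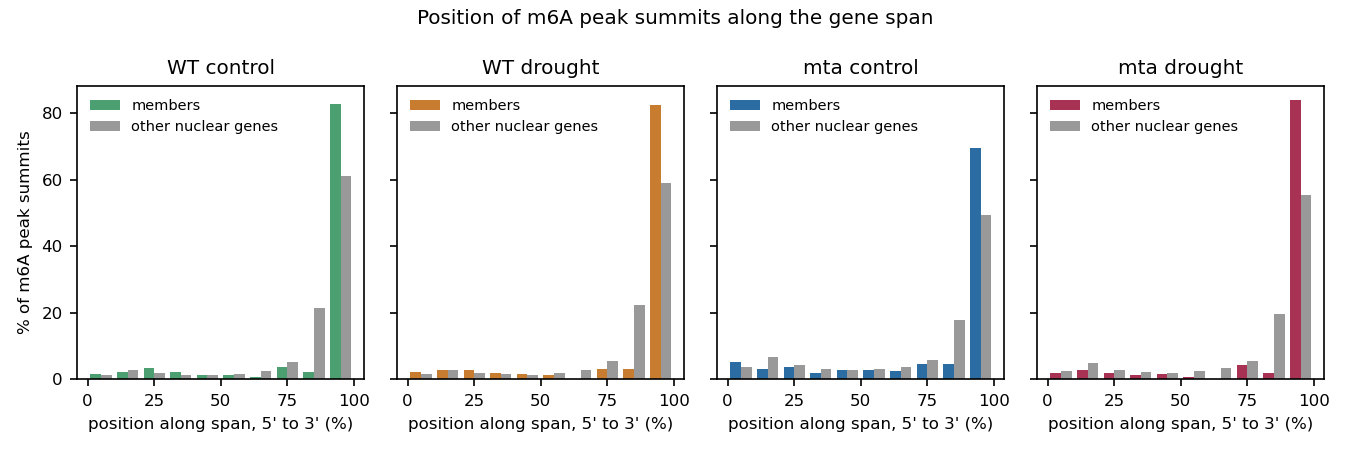
Percent of m6A peak summits in each 10% of the gene span, from the 5′ to the 3′ end, on the longest genes (coloured) and on all other nuclear genes (grey), in the 4 groups. The last 10% holds 69.6 to 84.0% of the summits on the longest genes and fewer of those on other genes.

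Only 18 members had any summit in the first 50% of the span, 157 summits in all, of which AT1G58602 held 74. It had 119 summits over the 12 libraries, from 6.22 to 97.9% of the span, with 31 in WT control, 33 in WT drought, 30 in mta control and 25 in mta drought. Peaks thus lined this gene in every group. AT5G40450 had 57 summits, 41 of them in mta control, 14 in WT control, 2 in mta drought and none in WT drought. Its mRNA was low in both drought groups, and the part of this in the counts of summits was not tested. In CHR5 9 of 12 summits were in the first 50%, at a median of 2.05% of the span. NUA had 47 summits between 42.6 and 99.3%.

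A summit was present in all 12 libraries for 62 members and in none for 16, and 67 were marked in all 4 groups. The 16 without a summit include the scarce myosins XIA, XIF and XID, the kinesin POK1 and the kinase ATR. Grouped by the mark, 61 of the 67 members marked in all groups fell under drought in mta, 33 of the 36 marked in some groups and 9 of the 12 tested that were marked in none. Their median log2 changes were -0.85, -1.16 and -1.73, but the last are also the least abundant, with a median of 2.70 on the log2 CPM scale against 6.23 in the first. Of all 115 tested members 103, or 89.6%, fell in mta mRNA, with a median of -1.01, and the counts by mark are to be read beside this share. Other genes were not grouped by the mark, so these counts have no background. Whether the fall differed with the mark was not tested.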

How the data were processed

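Gene tables of the mRNA, polysomal and GMUCT libraries hold raw counts that the authors made with featureCounts 2.0.1 (mRNA, GMUCT) and 2.0.3 (polysomal) over whole TAIR10 gene spans, per the file headers; GMUCT was counted without strand. Among low counts, 95.3 to 96.7% are even in the polysomal tables, against 45.6 to 48.1% elsewhere, so both reads of a pair seem to be counted there, which overstates their depth. Trim Galore, cutadapt, STAR and MACS2 are named per the submitters' processing notes. The deposited peak lists give each peak a fold enrichment (a ratio), −log10 p and q, and a score, all used as the authors' values; their background library is not given in the sources used here. Counts were tested on all genes with edgeR 4.0.16 in R 4.3.3 (TMM, filterByExpr with a minimum count of 10, 1 mean per group, quasi-likelihood test, Benjamini-Hochberg adjustment, threshold 0.05). Each assay had its own model over its 12 libraries; polysome association and uncapped share came from joint models of 24 libraries. CPM values use TMM-scaled library sizes. Alternatives were DESeq2 1.42.0, its size factors, no low-count filter, the replicate number as a block, a lowess span trend subtracted per library, and leaving out each library. The tests within each assay were also run on simulated counts of drought in WT, with the same dispersion for all genes and no span trend. That check does not cover libraries that drift with span. Same-numbered replicates of different groups did not deviate together within an assay (r from -0.07 to 0.11 in mRNA, -0.02 to 0.03 in polysomal RNA, -0.14 to 0.09 in GMUCT).

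Genes named by rule were those called with an average log2 CPM of 2 or more, the 5 largest each way in mRNA and 3 in other measures. For drought and genotype contrasts within an assay the groups also had not to overlap. No such condition was set for differences of drought effects, polysome association or the uncapped share. Also named were the 5 longest, the 5 most abundant per length and up to 10 long members with peaks in all 12 libraries. Others stand for their role group. Members, roles (22 of 72 were added once all members were listed) and lists were chosen with earlier results of these data known. Symbols come from the RefSeq gene table given for this work, which held all 121 members. Intervals and floors (3 counts) cover counting error only, at 95% confidence.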

Additional observations from a re-analysis of the deposited data

Results flagged for a closer look

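The drought effects of the 2 genotypes differed, by edgeR's test of that difference, for 85 of 115 members in mRNA, 63 of 117 in polysomal RNA and 16 of 118 in GMUCT. They differed for 18 of 117 in polysome association and 31 of 118 in the uncapped share. Over all tested genes the shares called either way were 37.6, 45.4, 23.6, 9.59 and 7.17% in the same order. The GMUCT count was not above that background. In mRNA, as mta minus WT on the log2 scale, the named members were AT1G58602 at 0.79, XIF at -1.96, ATR at -1.78, GSL04 at -1.64, MDN1 at -1.63 and NRPC1 at -1.57. In polysomal RNA they were AT1G58602 at 1.67, CALS1 at 0.95, ECA3 at 0.70, MDN1 at -1.71, NRPC1 at -1.61 and EMB2788 at -1.49.

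In GMUCT they were POK2 at 2.22, AT2G34100 at 2.08, AT5G40450 at 1.53, EMB2788 at -1.32, APC1 at -1.16 and AT3G50380 at -0.95. In polysome association they were AT5G15680 at 1.54, emb2410 at 1.15 and ATPI4K ALPHA at 0.99, and in the uncapped share POK2 at 6.06, NRPC1 at 2.60 and GSL04 at 2.13. The value for POK2 in the uncapped share rests on an mRNA group with 0 counts and is no bound. AT2G34100 had 1 library above 0 CPM of mRNA in WT drought and 1 in mta drought. Antisense rows, AT2G34110 among them, cover 4500 of its 13956 bases. Over that part its GMUCT reads, counted without strand, cannot be told apart from those of the antisense rows.

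Removing the span trend ended the mRNA calls of XIF, ATR, GSL04, MDN1 and NRPC1, those of emb2410 and ATPI4K ALPHA in polysome association and all 3 in the uncapped share. The replicate block and DESeq2's Wald test ended the mRNA call of XIF, and the latter also that of ATPI4K ALPHA. Leaving out single libraries also ended the calls of XIF and ATR in mRNA, EMB2788 and APC1 in GMUCT, ATPI4K ALPHA in polysome association, and POK2 and GSL04 in the uncapped share.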

How the results depend on the processing

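With the span trend removed, members called numbered 77 for drought in WT, 80 for drought in mta, 22 for mta against WT in control, 41 under drought and 22 for the difference in mRNA. They numbered 53 for mta against WT under drought in polysomal RNA, 54 and 46 for drought in WT and mta in GMUCT, 20, 34 and 6 in polysome association (WT, mta, difference), and 18 and 0 in the uncapped share (mta, difference). These totals hide turns of direction. For drought in mta mRNA 2 higher and 103 lower became 49 and 31. For mta against WT mRNA under drought 4 higher and 91 lower became 31 and 10, and for the mRNA difference 1 and 84 became 17 and 5. Other contrasts turned as well, among them polysome association and the uncapped share in mta. Without the low-count filter the GMUCT difference had 15 calls and the uncapped difference 51. Of all gene counts the WT drought GMUCT share was 0.413%. Without AT5G40450, an alternative chosen after seeing the data, as was leaving WT control mRNA replicate 3 out of the mRNA share (1.13%), the shares of WT control GMUCT, WT drought GMUCT, mta control GMUCT and WT control polysomal RNA were 0.605, 0.416, 0.629 and 0.314%. With spans of 9 kb or more the median polysomal difference was -0.32 (main value -0.38). Leaving out 1 library gave 7 to 20 calls for mRNA control, 11 to 24 for GMUCT control, 21 to 33 for GMUCT under drought, 10 to 16 for the GMUCT difference, 9 to 45 for the association difference, and 3 to 9, 52 to 88 and 15 to 52 for the uncapped share in WT, mta and their difference. Without mta control replicate 1 the 20 mRNA control calls had 7 higher and 13 lower. The GMUCT difference leaned lower at 15, 13 and 13 calls without WT control replicate 3, mta control replicate 2 or mta drought replicate 2.

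Within an assay the replicate numbers did not pair libraries of different groups. Whether same-numbered libraries of different assays belong together was not tested. A replicate block gave 61, 106, 14, 97 and 83 mRNA calls and ended GCN2's call in the uncapped share in WT. DESeq2 and its size factors moved no count of members by over 1.5 times. Scarce members and their peaks are limited by depth. Over all alternatives 441 values of counts, shares and medians stayed within range, 42 moved and 15 turned direction.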
